A study of Arabidopsis thaliana with 11 samples.

Results

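Alpha-expansins are secreted proteins that loosen plant cell walls at acidic pH without cutting the wall polymers. They act where cellulose is held to xyloglucan and let a wall under turgor stretch, so they are known from tissues in which cells enlarge. Different family members work in different cell types, and EXPA7 and EXPA18 are the members of growing root hairs, where they lie under the bHLH factors of the RHD6 and RSL kind. Described here are 6 alpha-expansins of Arabidopsis, named by gene, with earlier results of these data known: EXPA4 (AT2G39700), EXPA7 (AT1G12560), EXPA8 (AT2G40610), EXPA9 (AT5G02260), EXPA15 (AT2G03090) and EXPA18 (AT1G62980). They make up 6 of the 22746 plant probe sets of the array, with 1 probe set named for each gene.

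The study set seedlings of different ploidy against each other. All plants were of the ecotype C24 (stock N906), grown on MS agar with 16 h days at 21 °C and 8 h nights at 18 °C and taken whole at growth stage 1.02. RNA of whole plants was hybridised to 11 ATH1 arrays, of which 2 were diploid, 3 tetraploid and 3 each of a pair of triploid groups coded TFE and TME in the labels. The tetraploid came from colchicine treatment and both triploids from crosses between tetraploid and diploid plants. The labels do not spell out the triploid codes or say how many tetraploid lines were used. Whether the arrays of a group stand for different sowings is not said, and the spread behind every p-value is therefore that of arrays and may be technical. The array numbers in the labels run in blocks by group, with 1 and 2 for the diploid and 4 for the first TFE array. What these numbers record is not said. If they follow the order of handling, that order and group cannot be told apart.

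Each array had been scaled to the same mean, 100.01 after trimming 2% at each end, so a change in total RNA is not visible. Triploid TFE replicate 3 stood apart from the rest. Its rank correlation with any other array was 0.861 to 0.880, against 0.942 to 0.973 among the other 10, and its 40th percentile of signal was 37.6 against 26.3 to 29.3. Results that rest on it are given with and without it. An actin ratio of 3′ to 5′ probe sets, a sign of RNA quality, was 0.308 to 0.403 in the tetraploid arrays and 0.506 to 0.524 in the diploid arrays, without overlap. Another pair of actin probe sets gave 1.54 to 2.30 against 2.23 to 2.44, which overlap. Ratios of GAPDH (0.922 to 1.13 against 0.870 to 1.03) and ubiquitin (1.01 to 1.29 against 0.981 to 1.04) also overlapped between those groups. On triploid TFE replicate 3 the former actin ratio was 0.920, against 0.308 to 0.581 on the other arrays. The hybridisation controls, bacterial RNAs added to each sample, had a geometric mean signal of 372 to 627 in triploid TFE and 157 to 425 in the other groups. The part of these measures in the results below was not tested, except where a value says otherwise.

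**Figure D1:**
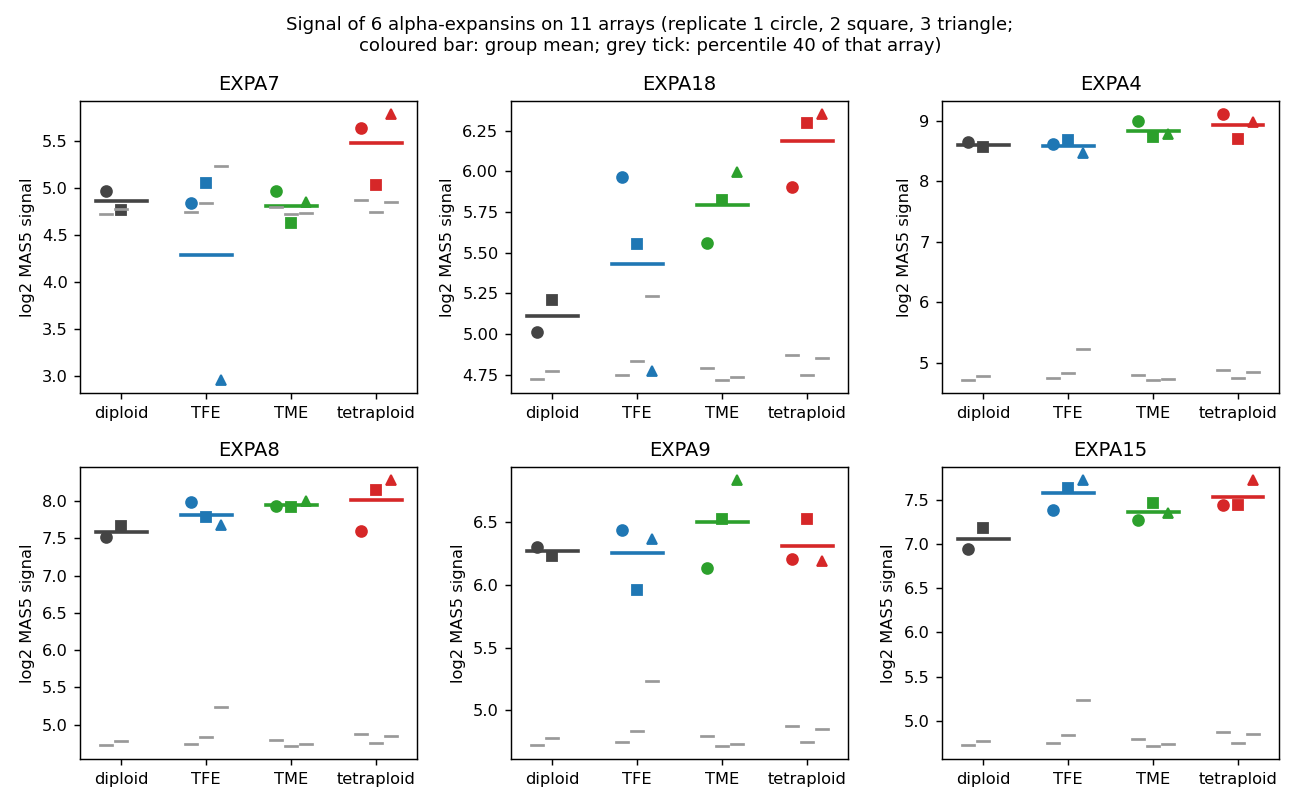
Signal of each alpha-expansin on each of the 11 arrays, one panel per gene, with the group on the horizontal axis and the log2 MAS5 signal on the vertical axis. Points are arrays. Before log2, EXPA18 runs from 32.3 and 37.0 in the diploid to 59.9, 78.8 and 81.7 in the tetraploid, and EXPA7 falls to 7.79 on triploid TFE replicate 3.

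In the tetraploid, 4 of the 6 genes lay above both diploid arrays on every array, namely EXPA4, EXPA7, EXPA15 and EXPA18, beside 15.9% of the 15075 probe sets tested. The largest difference was that of EXPA18, at 2.11-fold, and the smallest that of EXPA9, at 1.03-fold. None of the 6 had an adjusted p under 0.05 in limma, which called 0.829% of all probe sets in this comparison. The unadjusted p was under 0.05 for 4 of the 6, namely EXPA4, EXPA8, EXPA15 and EXPA18, all higher in the tetraploid. Of all probe sets, 4.87% were higher at this unadjusted threshold and 8.42% passed it in either direction. Without triploid TFE replicate 3, which enters this fit only through the pooled spread, 5 of the 6 had an unadjusted p under 0.05 (13.1% of all probe sets in either direction) and 1, EXPA18, an adjusted p under 0.05 (1.68%). The median log2 difference over the 6 was 0.45, beside 0.0069 over all probe sets tested. In whole plants, fewer or more cells of a type and less or more RNA per cell cannot be told apart.

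EXPA18, a root hair expansin, had signals of 32.3 and 37.0 on the diploid arrays and of 59.9, 78.8 and 81.7 on the tetraploid arrays. Triploid TFE gave 62.5, 46.9 and 27.4, and triploid TME gave 47.2, 56.7 and 63.9. The diploid values lay at percentiles 44.1 and 46.4 of the signals on their arrays, near the 40th percentile used as the filter. Over all arrays EXPA18 ran from percentile 32.6 to 65.9, and only on triploid TFE replicate 3 was it below the 40th. Every tetraploid array was above both diploid arrays, and 8 of the 9 arrays of polyploid plants were too, the exception being triploid TFE replicate 3. The tetraploid mean was 73.5 ± 11.9 (SD, n = 3) and the diploid mean 34.6 ± 3.36 (SD, n = 2). On the log2 scale the difference was 1.08 ± 0.31 (SE, 95% confidence interval 0.42 to 1.74), with limma adjusted p = 0.183, so it did not pass the threshold. Without triploid TFE replicate 3 the same difference of 1.08 had an adjusted p of 0.0163 in limma. Across chromosome sets, from diploid through both triploids to tetraploid, EXPA18 had a slope of 0.54 ± 0.15 log2 units per set (95% confidence interval 0.22 to 0.87), with limma adjusted p = 0.178. Without that array the slope was 0.52 and its adjusted p was 0.0145. The slope fit called 0.425% of all probe sets with all arrays and 1.5% without that array.

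The group means of EXPA18 ran in the order diploid, TFE, TME, tetraploid, but arrays of each pair of neighbours in this order overlapped. Triploid TME was 0.68 ± 0.31 above the diploid on the log2 scale with no overlap between arrays (limma adjusted p = 0.999). All TME arrays lay above the diploid arrays for 12.5% of all probe sets tested. The comparisons of the 3 polyploid groups with the diploid share its 2 arrays, so they are not independent. Triploid TFE was 0.32 ± 0.31 above the diploid, with an interval from −0.34 to 0.98, with values of 0.65 without its replicate 3 and 0.053 without its replicate 1. The tetraploid was 0.39 ± 0.28 above triploid TME, with an interval from −0.20 to 0.98.

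EXPA7, the other root hair expansin, was a dim probe set, between percentiles 12.9 and 55.4 of the signals on its arrays, and it passed the 40th percentile on 8 of 11 arrays. The diploid arrays gave 31.2 and 27.3, triploid TFE 28.6, 33.2 and 7.79, triploid TME 31.2, 24.7 and 28.8, and the tetraploid 49.6, 32.6 and 55.1. Arrays of the diploid and of both triploids lay in 1 range apart from the 7.79, and the tetraploid arrays were above all of the diploid and TME arrays. Of all probe sets tested, tetraploid arrays lay above the diploid for 15.9% and above TME for 8.03%. One TFE array, at 33.2, was above the lowest tetraploid array, at 32.6. The tetraploid difference from the diploid was 0.61 ± 0.52 on the log2 scale (95% confidence interval −0.49 to 1.72, limma adjusted p = 0.870). Without triploid TFE replicate 3 the standard error of this difference was 0.28 and the limma adjusted p was 0.364. The within-group SD of EXPA7, 0.66 log2 units with all arrays, was above the 90th percentile of all probe sets tested (0.577). Without triploid TFE replicate 3 it was 0.265, beside a median of 0.203 and a 90th percentile of 0.428 over all probe sets tested. Against triploid TFE the tetraploid was 1.20 higher (limma adjusted p = 0.292), and without TFE replicate 3 this fell to 0.53. Triploid TFE was 0.58 below the diploid with all arrays and 0.079 above it without that replicate.

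**Figure D2:**
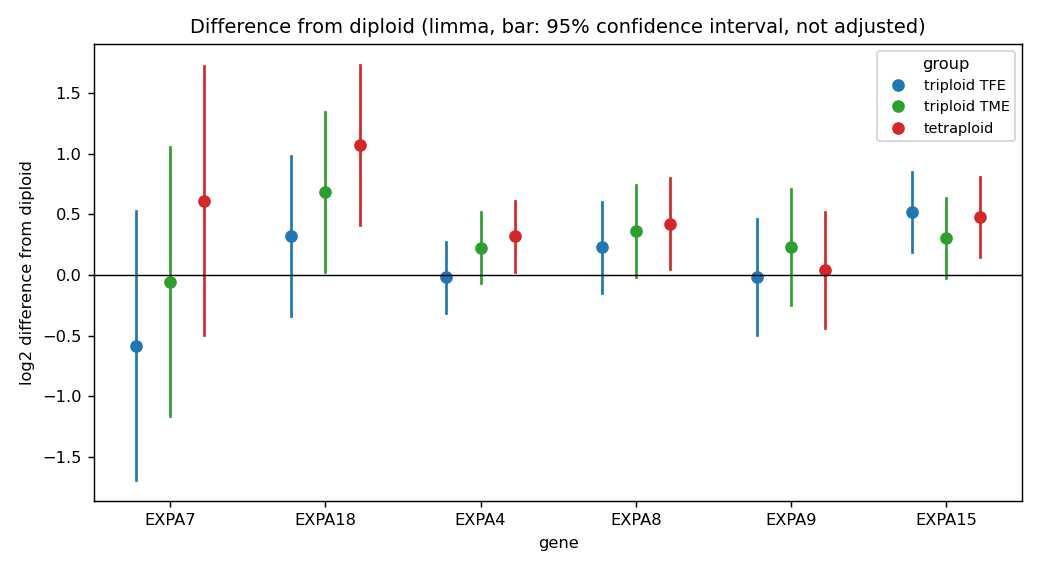
Log2 difference of each polyploid group from the diploid for the 6 genes, with the gene on the horizontal axis and the log2 difference on the vertical axis. Points are limma estimates and bars their unadjusted 95% confidence intervals. The tetraploid interval of EXPA18 runs from 0.42 to 1.74 and that of EXPA7 from −0.49 to 1.72.

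Among the other 4 genes, EXPA15, known from root tissue, was higher in every polyploid group. Its diploid signals were 123 and 145. Triploid TFE gave 167, 198 and 211, triploid TME 155, 177 and 164, and the tetraploid 175, 174 and 212. All 9 arrays of polyploid plants were above both diploid arrays, which held for 2.63% of all probe sets tested. The difference from the diploid was 0.52 ± 0.15 in triploid TFE (limma adjusted p = 0.406), 0.31 ± 0.15 in triploid TME (limma adjusted p = 0.999, and a difference of 0.19 without diploid replicate 1) and 0.48 ± 0.15 in the tetraploid (limma adjusted p = 0.280). None of these passed the threshold. The polyploid groups overlapped among themselves, and the tetraploid differed from triploid TFE by −0.04 ± 0.14, with an interval from −0.34 to 0.25. The highest group mean of EXPA15 was that of triploid TFE, at 192 ± 22.6 (SD, n = 3).

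EXPA8, a target of the growth-promoting bHLH factor HBI1, had diploid signals of 184 and 202. Triploid TFE gave 255, 222 and 205, triploid TME 245, 243 and 256, and the tetraploid 195, 286 and 312. Both triploid groups lay above both diploid arrays, while tetraploid replicate 1 lay between them. Of all probe sets tested, TFE arrays lay above the diploid for 11.9% and TME arrays for 12.5%. The tetraploid difference from the diploid was 0.42 ± 0.18 (95% confidence interval 0.05 to 0.80, limma adjusted p = 0.501). Tetraploid arrays were spread far more widely than TME arrays, with SDs of 61.7 and 7.23 signal units. Group means ran in the order diploid, TFE, TME, tetraploid, and of the neighbours only diploid and TFE did not overlap.

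EXPA4 was a bright probe set, between percentiles 92.6 and 95.3 of the signals on its arrays. The diploid arrays gave 403 and 378, triploid TFE 391, 413 and 354, triploid TME 509, 428 and 439, and the tetraploid 554, 415 and 504. Diploid and TFE arrays overlapped, and TME and tetraploid arrays overlapped, with every array of the second pair of groups above every array of the first. The closest were tetraploid replicate 2, at 415, and TFE replicate 2, at 413. Of all probe sets tested, TME arrays lay above the diploid for 12.5%. Tetraploid arrays lay above the diploid for 15.9% and above TFE for 8.50%. The tetraploid difference from the diploid was 0.32 ± 0.14 (limma adjusted p = 0.523) and from triploid TFE 0.34 ± 0.12 (limma adjusted p = 0.264). EXPA4 was also the member whose arrays did not overlap between the triploids: TFE was 0.25 ± 0.12 below TME (limma adjusted p = 0.493), beside 6.82% of all probe sets whose TFE arrays all lay below the TME arrays. Both triploids came from crosses of the same 2 ploidies, and no member differed between them past the threshold, where limma called 0.0265% of all probe sets.

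EXPA9 gave 78.7 and 75.1 in the diploid, 86.5, 62.1 and 82.3 in triploid TFE, 70.0, 92.2 and 114 in triploid TME, and 73.7, 91.8 and 73.1 in the tetraploid. All neighbouring groups overlapped. The tetraploid difference from the diploid was 0.04 ± 0.22, and its 95% confidence interval, −0.44 to 0.52, held both a rise and a fall of that size.

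In the remaining comparisons the count of members with an unadjusted p under 0.05 in limma was 1 of 6 for triploid TFE against diploid, beside 9.08% of all probe sets. It was 1 of 6 for triploid TME against diploid, beside 4.5%, and 3 of 6 for the tetraploid against triploid TFE, beside 13.5%. No member reached it between the triploids, beside 10.6%, or between tetraploid and triploid TME, beside 4.62%. For the slope over chromosome sets it was 4 of 6, beside 8.28%, and these were EXPA4, EXPA8, EXPA15 and EXPA18. Without triploid TFE replicate 3 the count was 2 of 6 for triploid TFE against diploid (7.19% of all probe sets), 3 of 6 for triploid TME against diploid (7.5%) and 1 of 6 for the tetraploid against triploid TFE (11.3%). It was then 0 of 6 between the triploids (7.41%), 1 of 6 for the tetraploid against triploid TME (8.55%) and 5 of 6 for the slope (13%). With all arrays and adjusted p-values limma called no member in any of these comparisons, and it called 0% of all probe sets for triploid TFE against diploid, 0.126% for triploid TME against diploid, 0.471% for the tetraploid against triploid TFE and 0% for the tetraploid against triploid TME. Without triploid TFE replicate 3 it called EXPA18 for the slope, as given above, and no member in the other 5. The shares of all probe sets called were then 0.0199%, 0.378%, 0.504% and 0.0133% in the same order of 4 comparisons. With the replicate number as a block in a limma fit of triploid TME and tetraploid alone, 42 probe sets were called between them, and none of the 6 members.

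**Figure D3:**
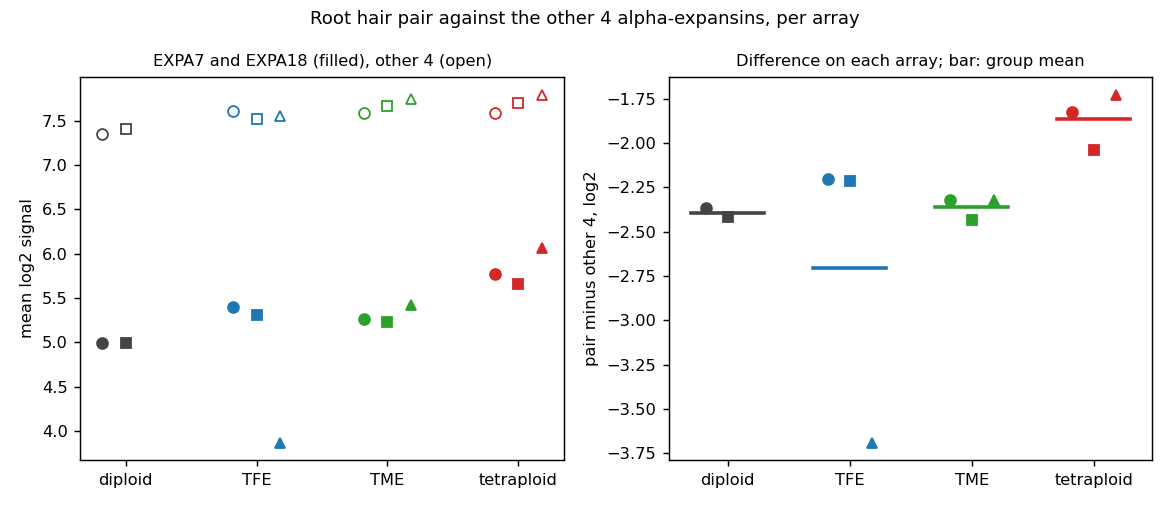
Mean log2 signal of EXPA7 and EXPA18 (filled) and of the other 4 alpha-expansins (open) on each array at the left, and the difference between those means at the right, by group. Bars are group means. The 3 tetraploid arrays, at −2.04 to −1.73, lie above the other 8 arrays, and triploid TFE replicate 3 is lowest, at −3.69.

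The root hair pair was then set against the other 4 genes within each array. The mean log2 signal of EXPA7 and EXPA18 minus that of the other 4 was −2.37 and −2.42 on the diploid arrays. It was −1.82, −2.04 and −1.73 on the tetraploid arrays, −2.32, −2.44 and −2.32 on the TME arrays and −2.20, −2.21 and −3.69 on the TFE arrays. Levels of different probe sets cannot be compared, so the gap itself has no meaning, and only its movement between arrays is read here. All 3 tetraploid arrays had a smaller gap than the other 8. From diploid to tetraploid the pair moved by 0.84 and the other 4 by 0.32 on the log2 scale, a difference of 0.53, for which no test was made because the members were chosen. From diploid to triploid TME the difference was 0.03. From diploid to triploid TFE it was −0.31 with all arrays and 0.18 without replicate 3. The pair itself was not uniform, since EXPA18 differed by 1.08 between tetraploid and diploid and EXPA7 by 0.61 with an interval that includes 0.

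**Figure D4:**
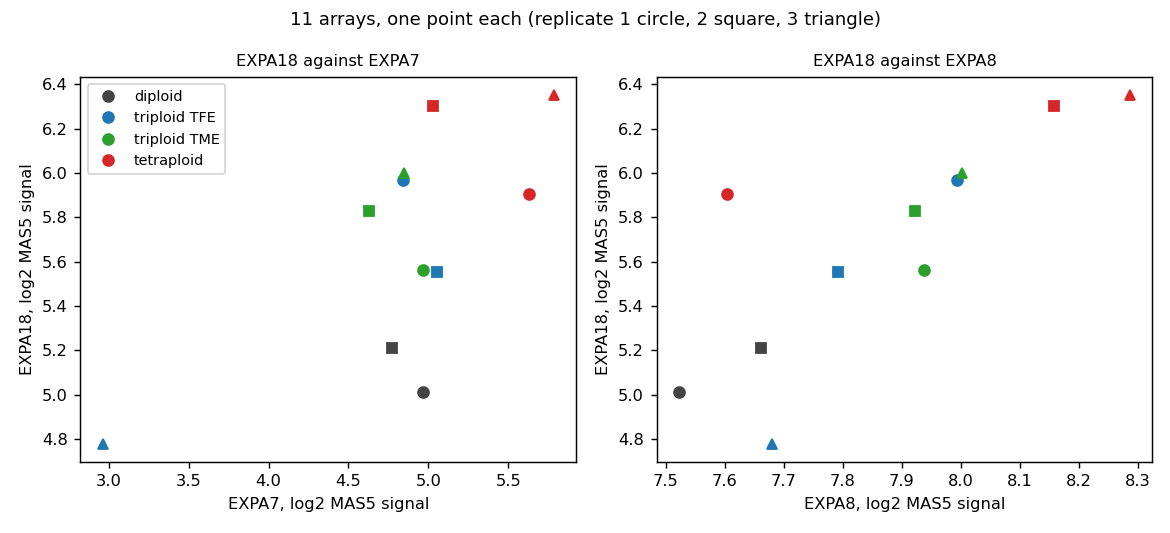
Log2 signal of EXPA18 on the vertical axis against EXPA7 at the left and EXPA8 at the right, with one point per array coloured by group. The EXPA7 panel rests on triploid TFE replicate 3 at its lower left and tetraploid replicate 3 at its upper right, and r falls from 0.680 to 0.157 without them.

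The signals of the members were also correlated with each other across the 11 arrays. Because the members were chosen with earlier results of these data known, the p-values here are a description. No p-value was made for r with group means removed, so a relation beyond the groups was not tested. EXPA18 and EXPA8 had Pearson r = 0.808 (permutation p = 0.00288, 0.0431 after Benjamini-Hochberg adjustment over 15 pairs of members) and Spearman rho = 0.818 (permutation p = 0.0032, adjusted 0.048). Without the 2 arrays farthest from the median r was 0.689, with group means removed it was 0.685, and without triploid TFE replicate 3 it was 0.837. EXPA4 and EXPA7 had r = 0.731 (permutation p = 0.00574, adjusted 0.0431) and rho = 0.664 (permutation p = 0.0303, adjusted 0.227). Without the 2 farthest arrays their r was 0.790. EXPA7 and EXPA18 had r = 0.680 (permutation p = 0.0136, adjusted 0.0679) and rho = 0.518 (permutation p = 0.108, adjusted 0.323). Their relation rests on the 2 farthest arrays, triploid TFE replicate 3 and tetraploid replicate 3, since r was 0.157 without them. With triploid TFE replicate 3 alone left out r was 0.427, and with group means removed it was 0.675 with that array and 0.276 without it.

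The genes most like each member were sought among 8160 probe sets of a single gene by Pearson r over the 11 arrays, as a description with no test. For EXPA18 they were the receptor-like kinase NCRK (r = 0.946), AT4G33730 (0.936) and AT2G29290 (0.934), while EXPA8 ranked 70 and EXPA7 351. These ranks were 46 and 1247 without triploid TFE replicate 3. For EXPA7 they were AT1G71730 (0.980), AT2G20790 (0.973) and AT3G50690 (0.966), which fell to 0.914, 0.889 and 0.861 without triploid TFE replicate 3. For EXPA8 they were AT2G21185 (0.946), the chloroplast lipocalin CHL (0.937) and AT1G26920 (0.922), and EXPA18 ranked 17, or 26 without that array. EXPA4 was most like AT2G37870 (0.921), the glycosyltransferase UGT85A2 (0.913) and AT1G56220 (0.883). EXPA15 was most like AT5G01460 (0.916), AT4G13000 (0.905) and AT3G11580 (0.902). EXPA9 had lower values, with AT4G09890 at 0.864, the RNA polymerase subunit NRPB12 at 0.820 and AT1G50290 at 0.795. The mean of EXPA7 and EXPA18 was most like AT3G15630 (0.963, and 0.883 without triploid TFE replicate 3), AT4G27390 (0.954) and AT3G58470 (0.953). No other alpha-expansin is among these names.

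Around these genes, the wall and root genes that the array table names were few. The naming used here left 8730 of the 22746 plant probe sets without a gene, 6621 of them kept for testing. A locus without a named probe set may therefore still be measured on the array. Of 25 alpha-expansin loci, 10 had a probe set of one gene and the 6 described here were the ones kept for testing. The other 4, EXPA16, EXPA20, EXPA21 and EXPA24, were too dim. Of 9 other expansins 8 had such a probe set and 5 were kept, and none passed the threshold in any comparison. EXPB3, a beta-expansin of the same wall-loosening superfamily, came closest. Its signals were 254 and 271 in the diploid, 389, 321 and 313 in triploid TFE, 365, 320 and 359 in triploid TME and 417, 367 and 372 in the tetraploid. All 9 arrays of polyploid plants were above both diploid arrays, as for 2.63% of all probe sets tested. The tetraploid difference was 0.55 ± 0.13 (limma adjusted p = 0.0681). The adjusted p of EXPB3 was 0.0280 without triploid TFE replicate 3 and 0.0450 without triploid TFE replicate 1. With array weights it was 0.0178 and under the stricter filter 0.0468. In every other setting the limma adjusted p of EXPB3 stayed above 0.05. Among these it was 0.224 with no trend and 0.255 without tetraploid replicate 1, and it was larger than both where a diploid array was left out. Its difference was 0.51 without diploid replicate 1 and 0.60 without diploid replicate 2. EXPB1 differed by 0.80 ± 0.34 (limma adjusted p = 0.522), and the expansin-like EXLA1 by −0.64 ± 0.29 (limma adjusted p = 0.564). The value of EXLA1 was −0.32 without diploid replicate 1 and −0.97 without diploid replicate 2.

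Root hair genes other than EXPA7 and EXPA18 could hardly be followed under this naming. Of 38 loci on the list only 4 had a probe set named as one gene, and 2 were kept. Other loci of the list may lie among the probe sets without a name. AT1G30870 gave 115 and 76.2 in the diploid, 75.1, 99.1 and 55.1 in triploid TFE, 105, 100.3 and 83.6 in triploid TME and 137, 133 and 144 in the tetraploid. Its 3 tetraploid arrays lay above all the other 8, as they did for 1.84% of all probe sets tested. In the tetraploid it differed from triploid TFE by 0.89 ± 0.21 (limma adjusted p = 0.0888, and 0.0452 under the stricter filter). With 1 array left out this difference was 0.68 to 1.10. Its limma adjusted p then ran from 0.0327, without triploid TFE replicate 2, to 0.333. The tetraploid differed from the diploid by 0.56 ± 0.23 (limma adjusted p = 0.504). That value was 0.85 without diploid replicate 1 and 0.27 without diploid replicate 2. SCN1, which restricts where root hairs form, differed by 0.05 ± 0.12 between tetraploid and diploid, with an interval from −0.21 to 0.31. COB, a GPI-anchored protein of oriented cell expansion in the root, differed by −0.34 ± 0.15 (limma adjusted p = 0.531).

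Markers of organs were read beside these values, because whole plants mix root and shoot. Of 13 root markers only 1 had a probe set named as one gene, and it was kept. This was PYK10, the root β-glucosidase. It had signals of 2666 to 3211 in the diploid and 3137 to 3640 in the tetraploid, which overlap, with a log2 difference of 0.21 ± 0.14 (limma adjusted p = 0.768). That difference was 0.080 without diploid replicate 1 and 0.35 without diploid replicate 2. Of 14 leaf markers 6 had such a probe set (RCA, LHCB4.1, LHCB4.2, PSAN, FMA and SPCH), and all 6 were kept. Their summed signal was 12419 to 16436 in the diploid and 13831 to 16438 in the tetraploid. The sum does not show members whose arrays did not overlap: FMA, of guard cells, had 42.8 and 44.2 in the diploid and 53.1 to 69.3 in the tetraploid, and SPCH, of the early stomatal lineage, 35.9 and 41.8 against 28.2 to 35.4. Neither passed the threshold (limma adjusted p = 0.866 and 0.950). Of all probe sets tested, tetraploid arrays lay above the diploid for 15.9% and below it for 13.7%. PYK10, RCA, LHCB4.1, LHCB4.2, PSAN and FMA lay above the 40th percentile on every array, and the label is whole plant. SPCH did so on 2 of 3 TFE arrays, 2 of 3 TME arrays and all arrays of the other groups. The part of these markers in the expansin values was not tested.

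**Figure D5:**
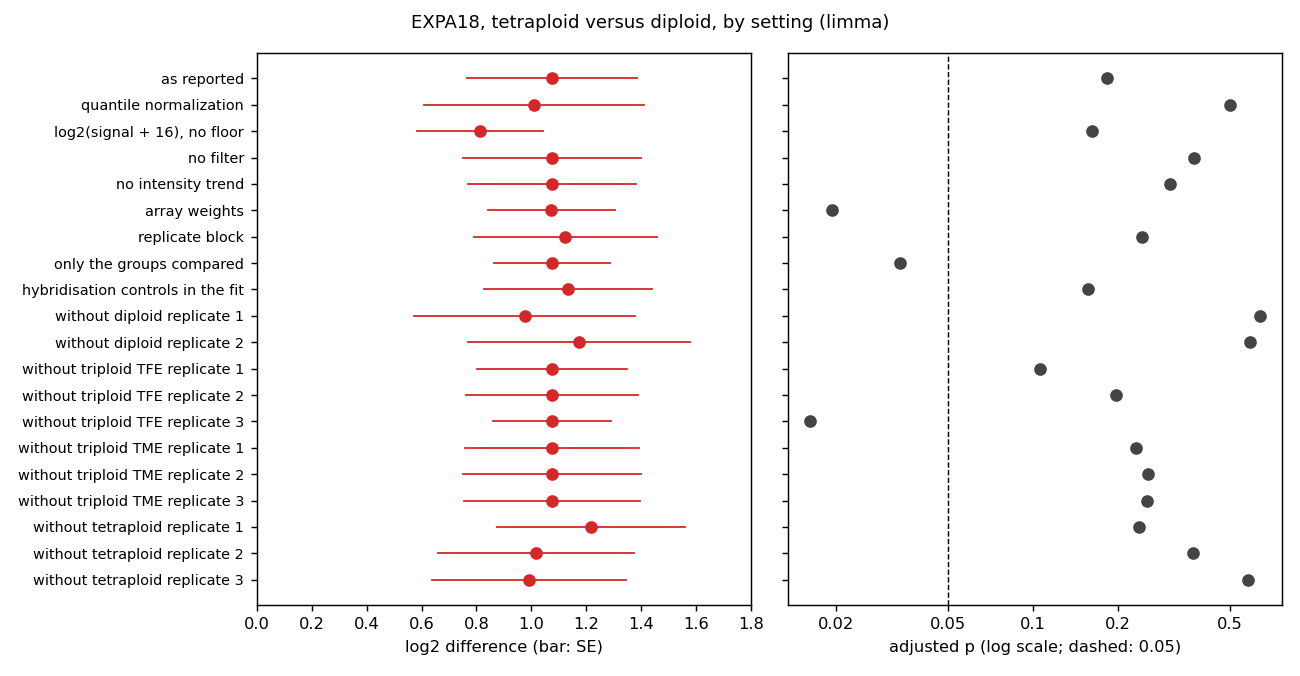
EXPA18 under each way of fitting the tetraploid against the diploid, with the log2 difference at the left and the limma adjusted p on a log axis at the right. The difference stays between 0.81, with log2(signal + 16), and 1.22, and the adjusted p runs from 0.0163 to 0.638.

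The difference of EXPA18 between tetraploid and diploid was above 0 in all 20 settings tried, the reported one included, and passed the threshold in 3 of them. These were array weights, a fit of the compared groups alone and the fit without triploid TFE replicate 3, and the largest adjusted p was 0.638. EXPA15 was above 0 in the same comparison in all 21 of its settings, with adjusted p from 0.112 to 0.872, and EXPA8 in all 21, with adjusted p from 0.104 to 1.00. EXPA7 and EXPA18 were not tested under the stricter filter, since both were too dim to pass it.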

How the data were processed

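RNA from whole seedlings was measured on 11 ATH1 arrays. The deposited values are linear signal intensities, 1 per probe set, made and scaled with MAS5 per the submitters' processing notes. The 64 control probe sets were left out, leaving 22746. Signals below 2.28, the 10th percentile, were set to that floor, and log2 values were taken. Probe sets above the 40th percentile of their array on at least 2 arrays were kept, 15075 in all (66.3%). Differences came from limma 3.58.1 in R 4.3.3 (lmFit, eBayes with trend), over all 4 groups, with Benjamini-Hochberg adjustment over all kept probe sets and a threshold of 0.05. There were 7 comparisons, 6 between groups and 1 slope over chromosome sets. The fit was checked on simulated data with independent normal residuals, which does not cover a deviating array such as triploid TFE replicate 3. Correlations used 100000 permutations.

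Probe sets were named through GEO's platform annotation: 13513 had one gene, 503 several and 8730 none here, and 13436 matched the TAIR10.1 gene table. The members and gene lists were chosen with earlier results of these data known. All 6 members are named. List genes are named where called or among the 3 smallest p-values per list and comparison, and for likeness the 3 highest r per member. Organ markers are named as a check.

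Alternatives were other normalisations and filters, a pseudocount of 16, no trend, array weights, a replicate block, the compared groups alone, each array left out, and, chosen after seeing the data, the level of 18 hybridisation control probe sets as a covariate and the replicate block in a fit of triploid TME and tetraploid alone. The labels' replicate numbers state no pairing. Deviations of same-numbered arrays from their group means correlated between −0.190 and 0.140. The correlation was over 0.1 in all 3 pairs (0.103 to 0.140) only between triploid TME and tetraploid, where different-numbered arrays gave −0.133 to 0.027. With 2 diploid arrays, their deviations mirror each other.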

Additional observations from a re-analysis of the deposited data

How the results depend on the processing

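With 2 diploid arrays, precision is limited by the number of arrays. Under the replicate block in a fit of all groups no member was called, and the probe sets called were 103, 0, 11, 0, 77, 0 and 51 in the order of comparisons that follows. Over all alternatives that leave out no array, 349 of 364 values kept direction and side of the threshold, and over those that leave out 1 array 442 of 462 did, with 2 passing it and 18 turning sign. None of the members was lost, since none was called. Where a value changed, the cause was not tested.

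For tetraploid against diploid the 125 probe sets called became 271 with array weights, 78 with no filter, 42 with no trend and 198 with the compared groups alone, and 29 to 253 with 1 array left out. For triploid TFE against diploid 0 became 6 with array weights, 2 with log2(signal + 16), 2 with quantile normalisation and 3 with the stricter filter, and 0 to 6 with 1 array left out. For triploid TME against diploid 19 became 89 with array weights, 3 with the hybridisation controls, 3 with no filter, 1 with no trend, 60 with the compared groups alone, 4 with quantile normalisation and 11 with the block, and 2 to 57 with 1 array left out. For triploid TFE against triploid TME 4 became 7 with array weights, 2 with the stricter filter, and 0 with the controls, no filter, no trend, the groups alone, quantile normalisation and the block, and 0 to 6 with 1 array left out. For the tetraploid against triploid TFE 71 became 0 with the controls, 20 with no filter, 3 with no trend and 19 with the groups alone, and 13 to 126 with 1 array left out. For the tetraploid against triploid TME 0 became 4 with array weights, 1 with the groups alone, 1 with the stricter filter and 42 with the replicate block in a fit of these groups alone, and 0 to 2 with 1 array left out. For the slope 64 became 230 with array weights, 117 with the controls, 32 with no filter and 11 with no trend, and 6 to 226 with 1 array left out.

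The members called were 1 with array weights in the tetraploid against the diploid and in the slope, and 1 with the groups alone in the former, EXPA18 each time, and 0 to 1 with 1 array left out. EXPA18 then differed by 1.07 with array weights (limma adjusted p = 0.0194) and 1.08 with the groups alone (0.0339), and its slope was 0.53 with array weights (0.0169). With 1 array left out its difference was 0.98 to 1.22 and its slope 0.50 to 0.61.

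Some values turned sign. EXPA4 in triploid TFE against diploid was 0.035 with array weights, 0.056 with quantile normalisation and 0.0035 with the block. EXPA7 was 0.015 with array weights for TFE against TME, and 0.17 with the controls and 0.11 with the block for TME against diploid. EXPA9 was −0.0021 with quantile normalisation and −0.016 with the block in the slope, −0.016 with the block in the tetraploid against diploid, −0.27 with the controls in the tetraploid against TFE and 0.35 with the controls in TFE against diploid. EXPA15 was 0.17 with the controls in the tetraploid against TFE. With 1 array left out, the ranges that crossed 0 were −0.14 to 0.030 for EXPA15 in the tetraploid against TFE, −0.070 to 0.042 for EXPA4 in TFE against diploid, and −0.073 to 0.27 for EXPA8 in the tetraploid against TME. For EXPA7 they were −0.97 to 0.079 in TFE against diploid, −0.91 to 0.13 in TFE against TME and −0.15 to 0.043 in TME against diploid. For EXPA9 they were −0.034 to 0.048 in the slope, −0.067 to 0.097 in the tetraploid against diploid, −0.093 to 0.15 in the tetraploid against TFE and −0.11 to 0.13 in TFE against diploid.

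The movement of the root hair pair against the other 4, for TFE against diploid, was −0.56 to 0.18 with 1 array left out, for TFE against TME −0.59 to 0.15 and for the tetraploid against TFE 0.35 to 1.09. With quantile normalisation the first was −0.67 and the second −0.69, and with log2(signal + 16) the movement from diploid to TME was −0.02.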
